A study of Homo sapiens
Mus musculus with 8 samples.

Results

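The genes described here encode the central parts of the major histocompatibility complex (MHC) class II pathway in a mixture of 2 mouse and 2 human lymphoid cell lines. They are 10 genes chosen by name and not by a cut on a level, 5 of the mouse (H2-Aa, H2-Ab1, H2-Eb1, Cd74 and Ciita) and 5 of the human (HLA-DRA, HLA-DRB1, HLA-DPA1, CD74 and CIITA), of 60736 genes in the count tables. The choice was made with earlier results of these data known. MHC class II molecules are pairs of an α and a β chain at the cell surface that show peptides from taken-up proteins to CD4 T cells. The invariant chain, made by Cd74, fills their peptide groove during assembly until endosomal proteases cut it away and the DM proteins exchange its last fragment for a peptide. The co-activator made by Ciita switches the genes on together at promoters bound by RFX, NF-Y and CREB proteins, constantly in B cells and dendritic cells and after interferon-γ in many other cells, while mouse T cells keep most of these genes silent and activated human T cells can switch them on.

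The study compared kits for single-cell RNA sequencing of immune cells. EL4 is a mouse CD4 T-cell lymphoma line, IVA12 a mouse B-cell line, Jurkat a human CD4 T-cell leukaemia line and TALL-104 a human CD8 T-cell leukaemia line grown with interleukin-2. All 4 were untreated and were mixed in equal numbers before capture. The 7 libraries analysed came from the 10x 3′ v3 kit (n = 4), the 10x 5′ v1 kit (n = 2) and the 10x 3′ v2 kit (n = 1). The 3′ v3 replicates 1 and 3 were made from one preparation of cells and replicates 2 and 4 from another, and the 5′ v1 and 3′ v2 libraries each came from a further preparation, so kit and preparation cannot be told apart. Whether the preparations came from separate cultures of a line was not stated in the sources used here, so a p-value measures the spread between these libraries, which may be technical.

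Cells were barcodes with at least 1000 UMIs (unique molecular identifiers, each counting 1 captured RNA molecule) and over 80% of them from 1 species. A mouse cell was EL4 where Lgals1, S100a6 and Perp together held at least 5 times the UMIs of Epcam, Cd24a, Ctss and Ckap4, and IVA12 where the reverse held. A human cell was TALL-104 where NKG7, CST7 and CD8A made up at least 0.1% of its UMIs and Jurkat where they made up less than 0.02%. This gave 10905 EL4, 5829 IVA12, 8105 Jurkat and 2666 TALL-104 cells, 27505 in all. Median UMIs per cell in a library ran from 22812 to 27968.5 in EL4, 10896 to 31126 in IVA12, 10075 to 18522 in Jurkat and 1929 to 2761.5 in TALL-104. The 5′ v1 libraries held 70 and 30 TALL-104 cells and the 3′ v2 library 41. Levels are given as CPM (counts of a gene's UMIs per 1e6 UMIs of the line's own species), summed over the cells of 1 line in 1 library, so a level is that of the sum and not of a typical cell. A UMI stands for 1 molecule whatever its length, and levels were not divided by gene length.

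The lines carried most of the markers of their labels. Summed over the T-cell list, EL4 held 2098 to 3082 CPM per library and IVA12 7.55 to 51.5 CPM. The B-lineage list summed to 3449 to 7348 CPM in IVA12 and 37.6 to 191 CPM in EL4. The highest genes of that list in IVA12 were Jchain, which joins antibody subunits, at 3036 CPM and Mzb1 at 1296 CPM, with Cd79b next at 288 CPM. The B-cell receptor gene Cd79a had 31 UMIs in IVA12, 0.202 CPM against 0.190 CPM in EL4. Xbp1 was at 270 CPM in IVA12, Ms4a1 at 164 CPM and Sdc1 at 90.5 CPM. The B-cell label was thus met in part, and whether the line is nearer a plasma cell was not tested. Of the human lines, Jurkat and TALL-104 held 2450.4 to 3173 CPM and 2822 to 3620.4 CPM of the T-cell list, and the cytotoxic list summed to 2762 to 9144 CPM in TALL-104 against 34.9 to 122 CPM in Jurkat. CD4, the coreceptor that names Jurkat's class, stood at 1.21 CPM there, and CD8B at 1.36 CPM in TALL-104 and 6.54 CPM in Jurkat. The myeloid and dendritic list summed to 14.5 to 40.9 CPM in IVA12 and 21.7 to 107 CPM in EL4; in IVA12 the endosomal glycoprotein gene Cd68 was at 19.3 CPM and the receptor gene Flt3 at 4.59 CPM, while Itgax, Adgre1 and Cd14 had 0 UMIs. The B-lineage list summed to 321 to 435 CPM in Jurkat, with MZB1 at 375 CPM and CD79A at 42.8 CPM, and to 24.9 to 184 CPM in TALL-104. The myeloid and dendritic list summed to 2.28 to 5.76 CPM in Jurkat and 282 to 572 CPM in TALL-104, with FCER1G at 376 CPM there. Libraries shared at most 24 cell barcodes a pair, up to 0.865% of the smaller library.

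No line held all 5 members of its species in every library. Cd74, the invariant chain, was high in the B-cell line IVA12, at 102 CPM over all libraries (15675 UMIs), whereas the chains it guards were each under 1 CPM there, H2-Eb1 at 0.939 CPM, H2-Aa at 0.554 CPM and H2-Ab1, on 8 UMIs, at 0.0522 CPM. The T-cell line EL4 held more of the β chain gene H2-Eb1 (3.66 CPM) and of the co-activator gene Ciita (0.293 CPM) than IVA12 did, with Cd74 at 2.25 CPM. Jurkat had HLA-DRB1 at 1.77 CPM and HLA-DPA1 at 0.665 CPM, with 2 UMIs of HLA-DRA and 12 of CD74. TALL-104 had 1 UMI of CIITA and 0 UMIs of the other 4 human members, at a depth where 0 UMIs allow up to 0.510 CPM.

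**Figure D1:**
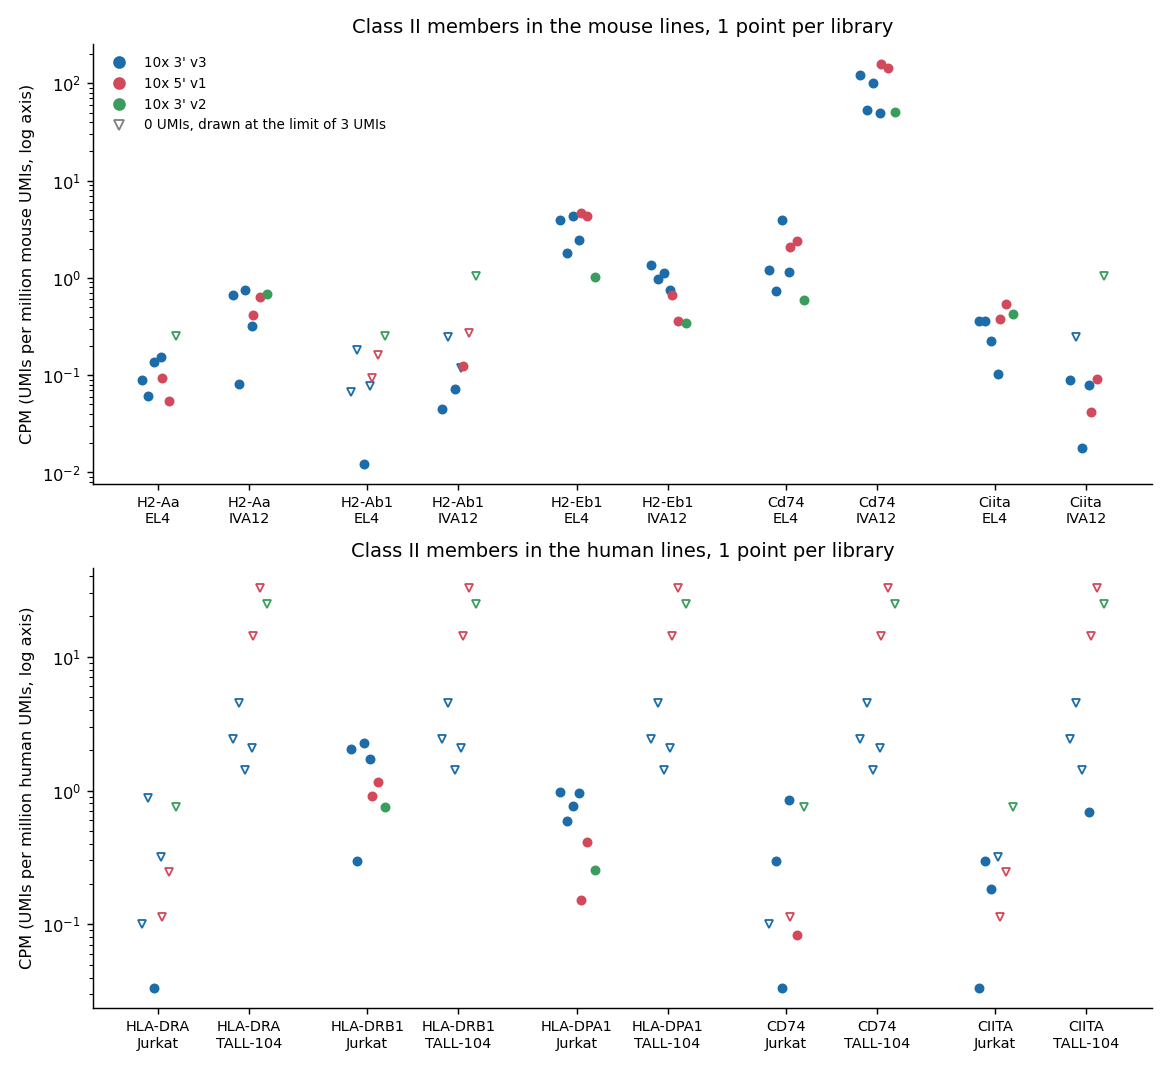
CPM of each of the 10 class II genes on a log axis, one point per library and line, mouse genes in one panel and human genes in the other; triangles mark libraries with 0 UMIs, drawn at the level that 3 UMIs would give. Cd74 in IVA12 lay between 49.1 and 158 CPM in all 7 libraries, far above every other member, and the TALL-104 points of HLA-DRB1 and HLA-DPA1 were all triangles.

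Cd74 separated the mouse lines in every library. In IVA12 it reached 121, 53.5, 100.4 and 49.1 CPM in 3′ v3 replicates 1 to 4, 158 and 142 CPM in the 5′ v1 replicates and 51.1 CPM in the 3′ v2 library. In EL4 the values in the same order were 1.21, 0.728, 3.96, 1.14, 2.07, 2.39 and 0.594 CPM. The lines did not overlap, and the lowest IVA12 library lay far above the highest EL4 library. The log2 difference of IVA12 from EL4, in a fit of edgeR's quasi-likelihood test with library as a block (n = 7 libraries), was 5.70 ± 0.24 (SE), or 52.0-fold, with a Benjamini-Hochberg adjusted p of 1.03e-08 over the 13179 mouse genes tested. Fitted within one preparation, the difference was 5.17 in 3′ v3 replicates 1 and 3, 5.59 in replicates 2 and 4 and 5.90 in the 5′ v1 libraries.

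Other IVA12 transcripts were also found at a low level in EL4. Cd74 in EL4 was 1.00% to 3.94% of its IVA12 level (median 1.36%), and the plasma and B-cell genes Jchain, Mzb1, Cd79b and Blnk had medians of 1.34%, 1.29%, 1.35% and 1.30%, with a joint range of 0.161% to 4.37%. In the 5′ v1 replicates and the 3′ v2 library Cd74 was at 1.31%, 1.68% and 1.16%, above each of those genes, which were at 0% to 0.642% there. In 3′ v3 replicate 3, the EL4 library with most Cd74, a single cell held 65 of the 320 UMIs. Human cells of the same libraries also carried mouse Cd74, at 0.0815 to 1.68 CPM of their UMIs, and barcodes of under 100 UMIs, which hold free RNA rather than cells, had 14.0 to 59.6 CPM of their mouse UMIs. The share of EL4 cells with a Cd74 UMI (0.851% to 4.93%) was above that of human cells (0.150% to 2.53%) in 7 of 7 libraries, at a greater depth per cell. The part of free RNA and of mixed barcodes in the EL4 value was not tested.

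H2-Eb1, the β chain of the I-E molecule, was higher in the T-cell line. EL4 had 3.89, 1.82, 4.34 and 2.43 CPM in 3′ v3 replicates 1 to 4, 4.67 and 4.34 CPM in the 5′ v1 replicates and 1.02 CPM in the 3′ v2 library. IVA12 had 1.34, 0.979, 1.11, 0.757, 0.669, 0.364 and 0.345 CPM in that order. EL4 was higher in 7 of 7 libraries, although the ranges touched, since the 3′ v2 value of EL4 lay below the highest IVA12 values. The log2 difference of IVA12 from EL4 was −2.09 ± 0.28 (adjusted p = 4.63e-05, n = 7), a level 4.26-fold lower. Within the 3 preparations that allowed a fit it was −1.93, −1.45 and −3.20. UMIs of H2-Eb1 were spread over 733 of the 10905 EL4 cells (6.72%), and human cells carried at most 0.124 CPM.

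H2-Aa, the α chain of the I-A molecule, was low in both lines and higher in IVA12. The 7 IVA12 libraries held 0.671, 0.0816, 0.753, 0.319, 0.418, 0.637 and 0.690 CPM (85 UMIs in all) in the order of 3′ v3, 5′ v1 and 3′ v2. The EL4 libraries held 0 to 0.155 CPM (26 UMIs). IVA12 was higher in each library, but in 3′ v3 replicate 2 each line had 1 UMI. The log2 difference was 2.20 ± 0.38 (adjusted p = 0.000328, n = 7), or 4.60-fold, for a gene that passed the filter on low counts through its IVA12 level. Its partner chain H2-Ab1 had 8 UMIs in IVA12, in 3 of 7 libraries, and 1 UMI in EL4. H2-Ab1 failed the filter on low counts, and in the fit without that filter its adjusted p was 0.0783.

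Ciita, the co-activator that class II promoters depend on, had 71 UMIs in EL4, at 0.103 to 0.542 CPM in all 7 libraries. IVA12 had 7 UMIs in 5 libraries, 0.0457 CPM over all. No Ciita UMI was found in a human cell. The gene failed the filter on low counts in the comparison of the lines, and in the fit without that filter IVA12 was lower by a log2 difference of −2.61 ± 0.53 (adjusted p = 0.000564 over 19757 genes).

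In all, 3 of the 5 mouse members passed the filter, with 2 higher and 1 lower in IVA12. Of all mouse genes tested, 77.0% differed between the lines by the same test and threshold of 0.05 (38.0% were higher in IVA12, 39.0% were lower), so a call by itself does not set the members apart. The calls of Cd74 and H2-Eb1 held in each of 19 alternative fits (log2 differences 5.17 to 6.00 and −3.20 to −1.45). That of H2-Aa held in each of the 16 in which it passed the filter (2.04 to 2.48). H2-Aa failed the filter, and so had no test, without the library block, within 3′ v3 replicates 2 and 4 and within 5′ v1.

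Other class II chains also divided the mouse lines. H2-Eb2, a second E-type β chain, stood at 5.61 CPM in EL4 (3.99 to 7.10 CPM over libraries) and 0.0848 CPM in IVA12. The log2 difference was −6.17 ± 0.37 (adjusted p = 7.85e-08), for a gene that passed the filter on low counts through its EL4 level. H2-Oa, the α chain of the DO protein that restrains DM, stood at 6.73 CPM in EL4 (1.87 to 9.15 CPM) and 0.0978 CPM in IVA12. H2-Oa too passed the filter through its EL4 level, and its difference was −6.23 ± 0.29 (adjusted p = 1.95e-08). Its partner H2-Ob went the other way, with 0 UMIs in EL4 and 19 in IVA12, at least 10.0-fold higher there against the level of 3 UMIs over all EL4 cells.

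The DM protein, which loads the peptide, was also divided. Its α chain gene H2-DMa was higher in IVA12, at 2.66 CPM (2.27 to 3.27) against 0.375 CPM in EL4 (2.75 ± 0.19, adjusted p = 2.39e-07). Its β chain gene H2-DMb1 was higher in EL4, at 0.429 CPM against 4 UMIs in IVA12 (−3.95 ± 0.59, adjusted p = 0.000103, a gene that passed the filter through its EL4 level), and H2-DMb2 had 4 UMIs in EL4 and 24 in IVA12. H2-DMb2 and H2-Ob failed the filter, and in the fit without it both were higher in IVA12 (adjusted p = 0.00251 and 0.00399). H2-Eb2 and H2-Oa in IVA12 were at a median of 0.901% and 1.58% of their EL4 levels (ranges 0% to 8.66% and 0% to 1.76%). These values rest on 13 and 15 IVA12 UMIs over all libraries, too few to place them against the abundant T-cell genes. For Cd3d, Cd3e, Cd3g, Thy1, Lat, Lck and Cd28 the medians ran from 0.722% to 1.83%. The part of free RNA in the IVA12 values was not tested. H2-Eb1 in IVA12 was at a median of 31.2% of its EL4 level.

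**Figure D2:**
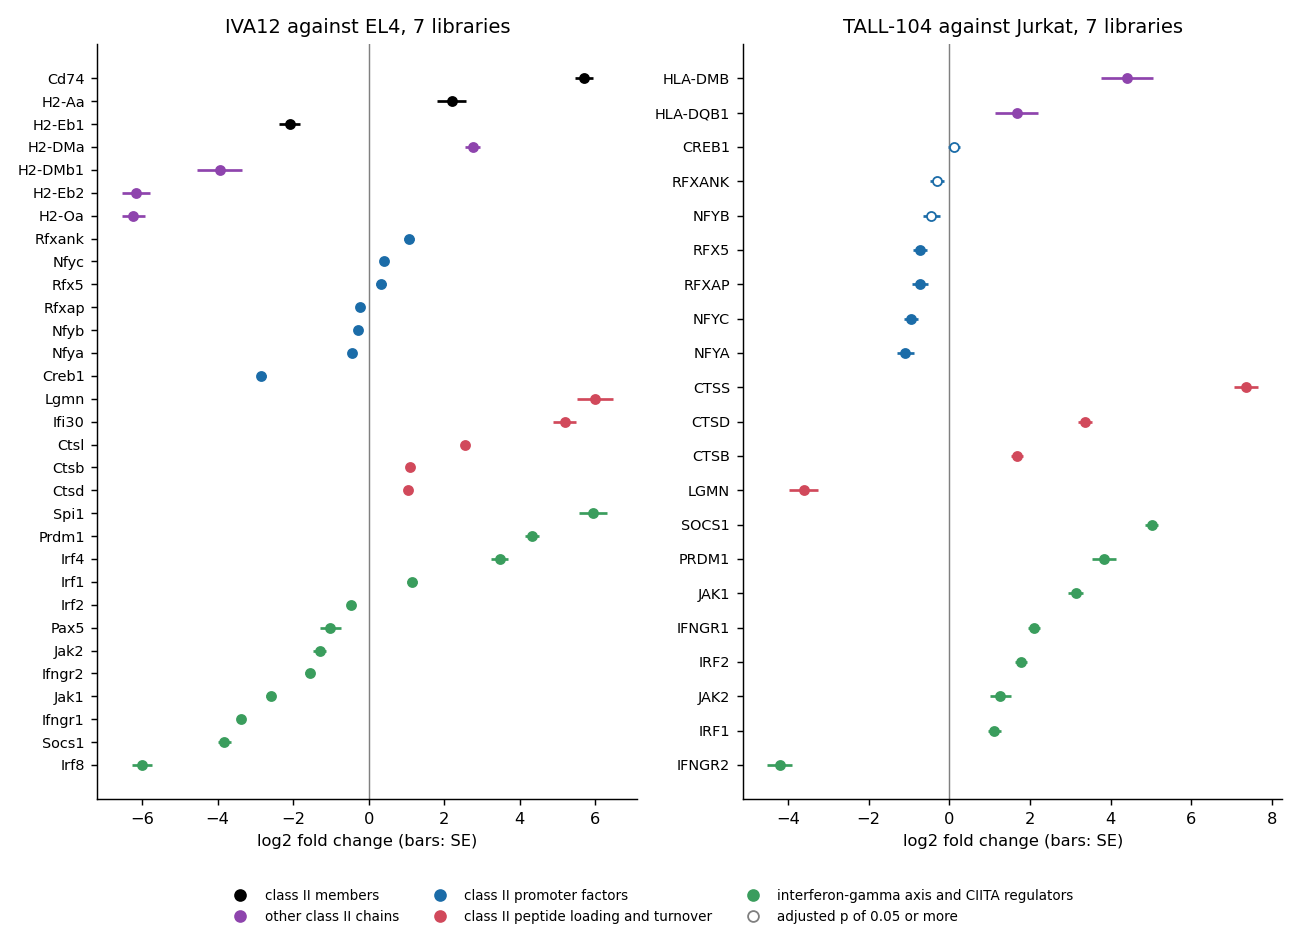
Log2 difference between lines (IVA12 minus EL4 for the mouse, TALL-104 minus Jurkat for the human) with its standard error for each tested gene, grouped by list; filled points had an adjusted p under 0.05 and open points did not. In the mouse panel Cd74 lies at 5.70 and H2-Oa and H2-Eb2 below −6, and no human member was tested.

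Of the genes for promoter-binding proteins, all 7 were detected in every library, and 3 were higher and 4 lower in IVA12, beside 38.0% and 39.0% of all genes, with a median of −0.22. Creb1, a cyclic AMP-responsive factor, had the largest difference of the 7, at 36.4 CPM in EL4 and 5.66 CPM in IVA12 (−2.84 ± 0.11, adjusted p = 8.71e-09). Rfxank, a subunit of the RFX complex, was at 5.10 and 11.1 CPM (1.07 ± 0.13, adjusted p = 1.64e-05). The other 5 lay within 0.5 on the log2 scale. Of their calls, 3 were lost under an alternative. Nfyb (−0.27 ± 0.07, adjusted p = 0.00374) lost its call without the library block (adjusted p = 0.158, the highest over 19 alternatives). Rfx5 (0.32 ± 0.13, adjusted p = 0.035) lost its call without any 1 of the 4 3′ v3 libraries or 5′ v1 replicate 2, and Rfxap (−0.22 ± 0.09, adjusted p = 0.0445) without any 1 of the 3′ v3 libraries or the 3′ v2 library. Over the 7 fits that each left out 1 library, their adjusted p ran up to 0.106 and 0.116. Over all 19 alternatives Rfx5 was called in 10 and Rfxap in 9, with adjusted p up to 0.364 and 0.406.

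Of the genes of peptide processing, Ctss, which chose the cells, was set aside, and the 5 others tested were all higher in IVA12 (median 2.56), where 38.0% of all mouse genes were higher. Lgmn, the asparagine endopeptidase that makes an early cut in the invariant chain, was at 162 CPM in IVA12 and 3.76 CPM in EL4 (5.99 ± 0.47). Ifi30, the thiol reductase that opens disulfide bonds of antigens, was at 98.1 and 2.95 CPM (5.19 ± 0.29), and the protease genes Ctsl, Ctsb and Ctsd differed by 2.56 ± 0.10, 1.10 ± 0.08 and 1.04 ± 0.07. The adjusted p of all 5 was under 0.05 in the 7 fits that each left out 1 library. Lgmn and Ifi30 in EL4 were at medians of 1.69% and 1.73% of their IVA12 levels (ranges 0.128% to 3.78% and 0.943% to 5.33%), and Ifi30 was above Jchain in 7 of 7 libraries by this measure.

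On the interferon and lineage list, 12 mouse genes were tested, 4 higher and 8 lower in IVA12 (median −1.16), beside 38.0% and 39.0% of all genes and a median of −0.0037. Higher were Spi1 (5.94 ± 0.38, 64.1 against 1.31 CPM), which encodes the PU.1 factor, Prdm1 (4.33 ± 0.18), which encodes the plasma-cell repressor Blimp-1, Irf4 (3.46 ± 0.23, 115 against 9.25 CPM) and Irf1 (1.15 ± 0.13). Lower were Irf8 (−6.01 ± 0.27, 0.111 against 6.68 CPM), the feedback inhibitor Socs1 (−3.82 ± 0.18), the interferon-γ receptor chains Ifngr1 (−3.37 ± 0.09) and Ifngr2 (−1.57 ± 0.13), the kinases Jak1 (−2.60 ± 0.12) and Jak2 (−1.30 ± 0.18), Pax5 (−1.02 ± 0.28) and Irf2 (−0.46 ± 0.09). Irf8 passed the filter on low counts through its EL4 level. Pax5, the B-cell identity factor, was at 0.378 CPM in IVA12 and 0.701 CPM in EL4, and within 3′ v3 replicates 1 and 3 its difference was −0.37 and was not called (adjusted p = 0.475, range over 19 alternatives 0.00191 to 0.475). Ifng itself had 35 UMIs in EL4 and 0 in IVA12.

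**Figure D3:**
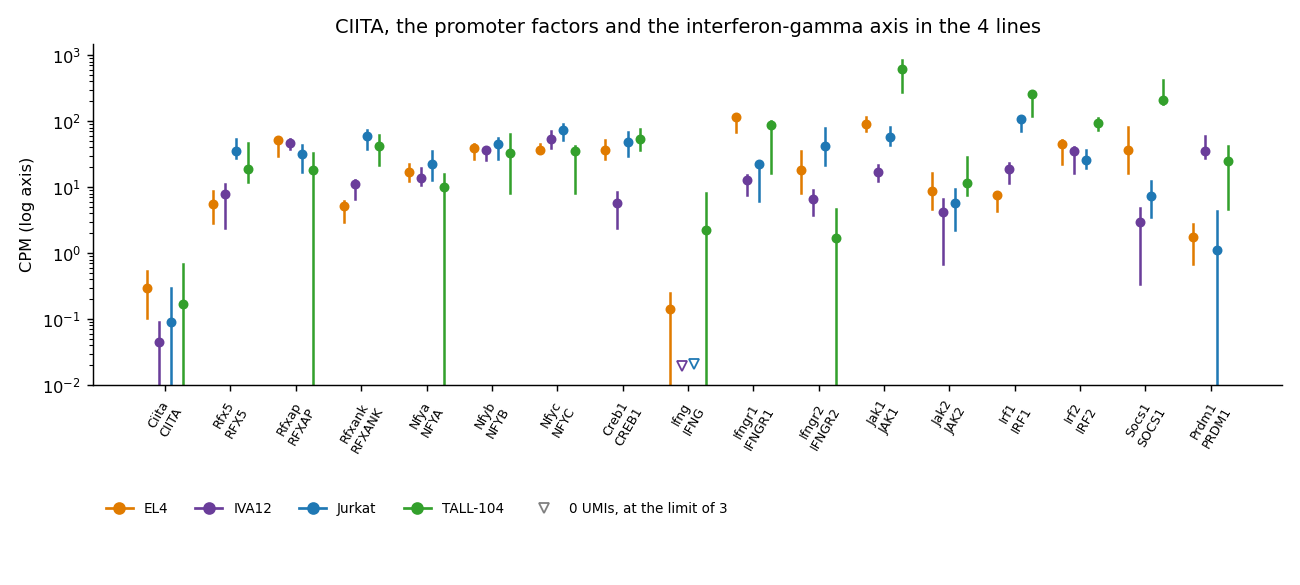
CPM over all libraries (points, log axis) of the class II co-activator, its promoter partners and the interferon and lineage genes in each line, with bars from the lowest to the highest library; a bar that runs to the lower edge reached 0, and triangles mark lines with 0 UMIs, drawn at the level of 3 UMIs over the line. The co-activator gene lay at 0.293 CPM in EL4, 0.0457 in IVA12 and 0.0900 in Jurkat, while the RFX and NF-Y genes lay between 5.10 and 73.8 CPM in all 4 lines.

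Of the human members, HLA-DRB1, a DR β chain, was the highest. Jurkat held 2.05, 0.295, 2.28 and 1.71 CPM in 3′ v3 replicates 1 to 4, 0.912 and 1.16 CPM in the 5′ v1 replicates and 0.759 CPM in the 3′ v2 library. The lowest value rests on 1 UMI. The 255 UMIs lay in 234 of the 8105 Jurkat cells (2.89%), and 0 to 0.0494% of mouse cells held one. TALL-104 had 0 UMIs among 5883596 (0 of 2666 cells, which allows a share of cells with a UMI of up to 0.113% and, at this depth per cell, does not limit the share that express the gene), so the Jurkat level was at least 3.46-fold higher than the level of 3 UMIs over all TALL-104 cells. HLA-DPA1, the DP α chain, held 0.975, 0.590, 0.772, 0.960, 0.152, 0.413 and 0.253 CPM in Jurkat in the same order (96 UMIs in 89 cells) and 0 UMIs in TALL-104, at least 1.30-fold lower.

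The partner chains of both were all but missing. HLA-DRA, the α chain that pairs with HLA-DRB1, had 2 UMIs in Jurkat, both in 3′ v3 replicate 3, or 0.0138 CPM over all libraries. HLA-DPB1, the partner of HLA-DPA1, had 7 UMIs. At the depth of Jurkat, 3 UMIs over all libraries would be 0.0208 CPM. HLA-DRB1 is nearly identical in sequence to HLA-DRB5, which had 34 UMIs in Jurkat, and how the counting shared reads between them was not tested, so both values are uncertain.

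CD74 had 12 UMIs in 5 Jurkat cells, 8 of them in 1 cell of 3′ v3 replicate 4, and 0 in TALL-104. CIITA had 13 UMIs in Jurkat, 11 of them in 3′ v3 replicate 3, and 1 in TALL-104. Mouse cells of these libraries held 12 UMIs of human CIITA, and the Jurkat level of 0.185 CPM in 3′ v3 replicate 3 stands beside 0.0649 CPM in the mouse cells of that library. The part of free RNA in the Jurkat values of CD74 and CIITA was not tested.

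None of the 5 human members passed the filter on low counts when the 2 human lines were compared, so none had a test among the 12178 genes fitted, of which 67.0% were called (30.3% with more in TALL-104, 36.7% with less). In the fit without the filter, over 22612 genes, HLA-DRB1 had an adjusted p of 0.000115 and HLA-DPA1 of 0.0123, both lower in TALL-104, and CD74, HLA-DRA and CIITA had adjusted p-values of 0.26, 0.855 and 0.871. The TALL-104 sums held 5883596 UMIs over all libraries against 144433333 in Jurkat.

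The other human chains were mixed. HLA-DMA, the DM α chain, was at 3.03 CPM in Jurkat (1.26 to 5.76 CPM, 437 UMIs) and 0.850 CPM in TALL-104 (5 UMIs), whereas its partner HLA-DMB was at 0.125 CPM in Jurkat and 3.57 CPM in TALL-104 (21 UMIs). HLA-DMB was higher in TALL-104 by a log2 difference of 4.42 ± 0.64 (adjusted p = 6.87e-07, n = 7). It was called in each of the 16 alternatives in which it passed the filter. It failed the filter with over 95% of UMIs from 1 species, without the library block and within 5′ v1. HLA-DQB1 was at 0.859 and 2.89 CPM, with the 17 TALL-104 UMIs in 4 libraries (1.67 ± 0.54, adjusted p = 0.00773). Of 19 alternatives it had a test in 12 and a call in 11, and DESeq2 did not call it (adjusted p = 0.061, range over the 12 0.00352 to 0.061). It failed the filter, and so had no test, under 10% mitochondrial UMIs, with over 95% of UMIs from 1 species and without the library block. The same held without 3′ v3 replicate 1 or 4, within 3′ v3 replicates 2 and 4 and within 5′ v1. HLA-DOA, the DO α chain, had 188 UMIs in Jurkat (1.30 CPM) and 0 in TALL-104, at least 2.55-fold lower. HLA-DQA1, HLA-DQA2 and HLA-DQB2 had 0 UMIs in both lines. Of the 10 listed chains, HLA-DMB and HLA-DQB1 alone passed the filter, and both did so through TALL-104, where their level was higher, on sums of 21 and 17 UMIs. In the fit without the filter HLA-DMA and HLA-DOA were lower in TALL-104, with adjusted p-values of 0.000381 and 3.87e-05.

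Of the 7 human promoter-binding genes, 4 were lower in TALL-104 and 3 were not called (median −0.72, beside −0.11 over all human genes tested, of which 36.7% were lower). NFYA (−1.09 ± 0.21), NFYC (−0.95 ± 0.18), RFXAP (−0.73 ± 0.20) and RFX5 (−0.72 ± 0.18) were lower, while NFYB, RFXANK and CREB1 gave −0.45, −0.30 and 0.12 with adjusted p-values of 0.0634, 0.119 and 0.516. NFYB was called in 8 of 19 alternatives (−1.44 to 0.77, adjusted p 4.87e-09 to 0.691) and RFXANK in 3 of 19 (−0.53 to 0.13, adjusted p 2.05e-05 to 0.854), and within 5′ v1 the calls of NFYA, RFX5 and RFXAP were lost. The level of CREB1 was 48.5 CPM in Jurkat and 54.2 CPM in TALL-104.

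Of the peptide-processing genes tested, 3 of 4 were higher in TALL-104, where 30.3% of all human genes were. CTSS, the cathepsin that finishes trimming of the invariant chain, was at 55.1 CPM against 0.305 CPM in Jurkat (7.36 ± 0.29), CTSD at 393 against 51.2 CPM (3.37 ± 0.17) and CTSB at 74.4 against 25.1 CPM (1.68 ± 0.15). CTSS passed the filter on low counts through its TALL-104 level. LGMN was lower (−3.61 ± 0.35, 1.53 against 15.7 CPM). Of 8 interferon and lineage genes tested, 7 were higher (median 1.94, beside −0.11 over all human genes), led by SOCS1 (5.02 ± 0.17, 210 against 7.35 CPM), PRDM1 (3.84 ± 0.30) and JAK1 (3.13 ± 0.18), with IFNGR1 (2.10 ± 0.15), IRF2 (1.79 ± 0.15), JAK2 (1.26 ± 0.26) and IRF1 (1.12 ± 0.16). IFNGR2, the second receptor chain, was lower (−4.21 ± 0.31, 1.70 against 41.5 CPM). IFNGR2 and LGMN passed the filter on low counts through their Jurkat level, with 10 and 9 UMIs in TALL-104. IFNG had 13 UMIs in TALL-104 and 0 in Jurkat. That is 106-fold higher against 3 UMIs over all Jurkat cells, with the counting error of the 13 UMIs left out. Over all lists, 18 of the 21 human genes tested were called (85.7%), beside 67.0% of all human genes. Within the 5′ v1 preparation, where TALL-104 had 100 cells in all, 9 listed genes were called, beside 3231 of all 11477 genes tested. CTSS, LGMN, PRDM1 and JAK2 were among those not called there.

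Between kits, each line's sums were compared between 3′ v3 and 5′ v1, with the single 3′ v2 library kept in the fit. The filter left 3 members to test in EL4, 3 in IVA12, 2 in Jurkat and 0 in TALL-104, and none of those tested was called. Over all genes tested, 35.7% differed between the kits in EL4 (18.7% higher and 17.0% lower in 3′ v3) and 9.06% in IVA12 (4.33% and 4.73%). In Jurkat 17.3% differed (8.29% and 9.03%) and in TALL-104 4.52% (2.52% and 2.00%). Cd74 in IVA12 was 81.0 ± 35.3 CPM (SD, n = 4) in 3′ v3, 149.8 ± 11.2 CPM (n = 2) in 5′ v1 and 51.1 CPM in 3′ v2, a log2 difference of 3′ v3 from 5′ v1 of −0.81 ± 0.45 (adjusted p = 0.299). The 3′ v3 spread followed the preparations: replicates 1 and 3 were at 121 and 100.4 CPM, and replicates 2 and 4 at 53.5 and 49.1 CPM. Fits of 1 such pair against 5′ v1 hold 1 preparation a side, so their p-values measure the spread between libraries of a preparation. Set against 5′ v1 by themselves, the first pair differed by −0.27 (adjusted p = 0.0343) and the second by −1.65 (adjusted p = 1.06e-15). Over 17 alternatives the adjusted p ran from 1.06e-15 to 0.685, and these were the 2 that called the gene.

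**Figure D4:**
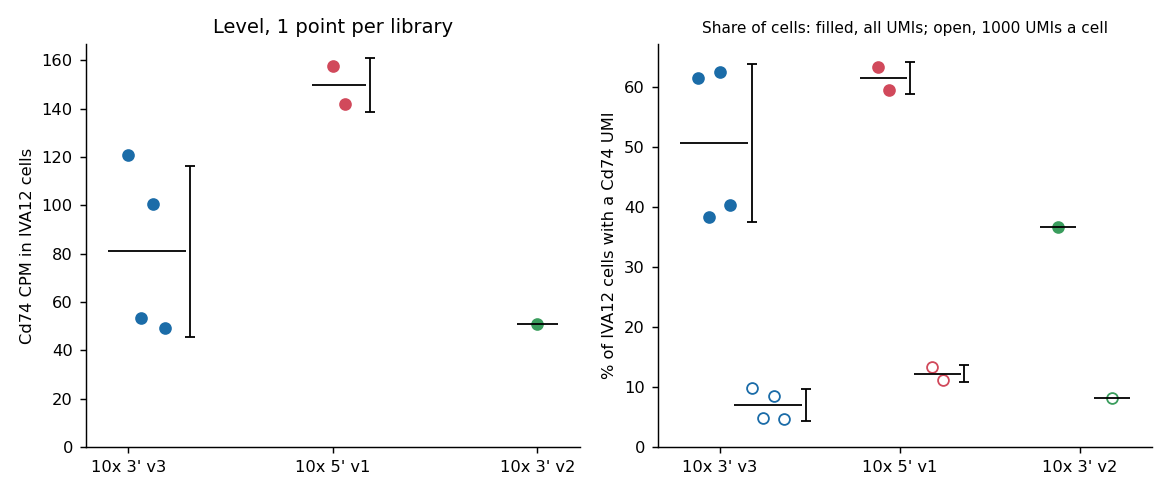
Cd74 in IVA12 by kit, as CPM in one panel and as the percent of cells with at least 1 UMI in the other, one point per library, with lines at the mean and bars of 1 SD; filled points use all UMIs and open points cells thinned to 1000 UMIs. The 5′ v1 libraries were at 158 and 142 CPM, the 3′ v3 libraries fell into a higher and a lower pair, and thinning lowered the shares from 36.7% to 63.5% of cells to 4.64% to 13.3%.

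H2-Eb1 in EL4 was 3.12 ± 1.19 CPM (n = 4) in 3′ v3 and 4.51 ± 0.238 CPM (n = 2) in 5′ v1, a log2 difference of −0.50 ± 0.44 (adjusted p = 0.404). It was −0.01 with replicates 1 and 3 (adjusted p = 0.956) and −1.32 with replicates 2 and 4 (adjusted p = 0.000167), which are the ends of the range over 17 alternatives. H2-Eb1 in IVA12 was 1.05 ± 0.245 and 0.516 ± 0.216 CPM, a difference of 0.99 ± 0.46 (adjusted p = 0.216, range over 17 alternatives 0.0119 to 0.665). Cd74 in EL4 gave −0.23 ± 0.72 (adjusted p = 0.826, range 0.00112 to 0.999), and it was −1.17 and called without 3′ v3 replicate 3 (adjusted p = 0.0381). Ciita in EL4 gave −0.84 ± 0.59 (adjusted p = 0.298) and H2-Aa in IVA12 0.07 ± 0.74 (adjusted p = 0.97).

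In Jurkat, HLA-DRB1 was 1.58 ± 0.892 CPM in 3′ v3 and 1.03 ± 0.172 CPM in 5′ v1 (0.84 ± 0.58, adjusted p = 0.338, range over 17 alternatives 0.000505 to 0.712). HLA-DPA1 was 0.825 ± 0.182 and 0.282 ± 0.184 CPM, a difference of 1.74 ± 0.56 (adjusted p = 0.073, range over 16 alternatives 0.00188 to 0.467). The 5′ v1 values of HLA-DPA1 rest on 4 and 5 UMIs.

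Among the other listed genes, in EL4, Ifi30 (2.36), Lgmn (2.59) and Rfxap (0.76) were higher in 3′ v3 on the log2 scale, and Socs1 (−1.68), Ifngr2 (−1.23), Jak2 (−0.99) and Creb1 (−0.53) were lower. These were 7 of the 31 listed genes tested (22.6%), beside 35.7% of all genes. Without 5′ v1 replicate 1, 2 of the 7 held, and without 5′ v1 replicate 2, 1 did. In Jurkat, HLA-DOB was higher in 3′ v3 (3.90 ± 0.80, adjusted p = 0.019), on 76 UMIs over all Jurkat libraries. LGMN (1.43) was also higher, and IFNGR2 (−1.25), JAK2 (−0.96), RFX5 (−0.82), SOCS1 (−0.76) and NFYA (−0.65) were lower. These were 7 of 26 tested (26.9%), beside 17.3% of all genes. None of those 7 was called once either 5′ v1 replicate was left out. In IVA12 and TALL-104 none of the listed genes was called with all libraries. With 3′ v3 replicates 1 and 3 set against 5′ v1 by themselves, 18 listed genes were called in IVA12, beside 7025 of all 11669 genes tested. In TALL-104 the count was 4, beside 1303 of 7296. With replicates 2 and 4 it was 14 in IVA12, beside 7711 of 11534, and 8 in TALL-104, beside 2247 of 6485.

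The difference between the mouse lines itself differed between the kits for H2-Eb1. The log2 difference of IVA12 from EL4 was less negative in 3′ v3 than in 5′ v1 by 1.48 ± 0.42 (adjusted p = 0.024, range over 16 alternatives 0.00347 to 0.143), beside 30.6% of all genes called, 13.4% in that direction and 17.2% in the other. The call was lost without 5′ v1 replicate 1 (2.02, adjusted p = 0.106) or without replicate 2 (1.28, adjusted p = 0.143). For Cd74 the line difference changed by −0.51 ± 0.50 (adjusted p = 0.465) and for H2-Aa by −0.37 ± 0.90 (adjusted p = 0.785). No human member could be tested in this way, and 1.32% of human genes were called (0.322% in the positive and 0.998% in the negative direction).

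Within IVA12, Cd74 UMIs were concentrated in few cells. Over all libraries 3256 of 5829 IVA12 cells (55.9%) held at least 1 UMI, and the mean per cell in a library ran from 0.892 to 3.67 UMIs. In 3′ v3 replicates 1 to 4, 10.3%, 2.52%, 7.07% and 2.11% of cells had 10 or more UMIs, and these cells held 58.1%, 36.6%, 43.4% and 31.7% of all Cd74 UMIs. In the 5′ v1 libraries 10.6% and 8.99% of cells held 58.7% and 56.7%, and in the 3′ v2 library 0.602% held 11.5%. The highest cell had 79 UMIs.

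The 10% of IVA12 cells with most Cd74 held 52.0% to 68.9% of its UMIs over the 7 libraries. The same measure was 25.3% to 35.1% for Lgmn, 28.1% to 40.1% for Ctsl and 27.0% to 36.7% for Ifi30, so the ranges of the 3 genes lay below that of Cd74 in these libraries. Depth per cell moved with the Cd74 class in part: from cells with 0 UMIs to cells with 10 or more, the median total rose from 18374.5 to 37814 UMIs in 3′ v3 replicate 1 and from 23339 to 38151 UMIs in replicate 3, whereas in the 3′ v2 library the median was 14512 UMIs with 0 Cd74 UMIs and the 1 cell with 10 or more had 6528 UMIs. The part of depth in this spread was not tested.

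**Figure D5:**
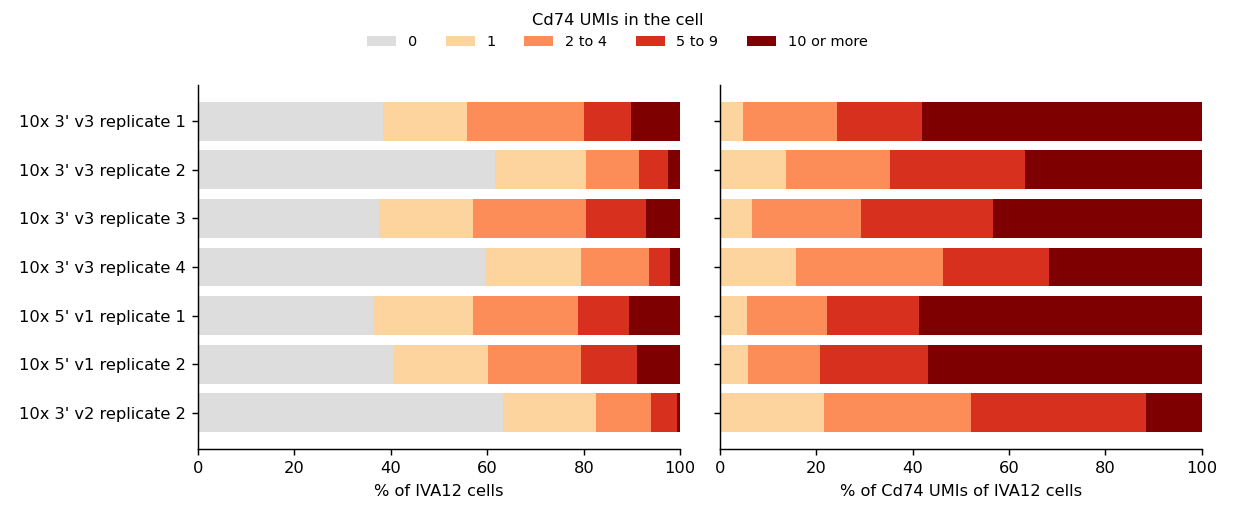
Share of IVA12 cells, and share of all Cd74 UMIs, by the number of Cd74 UMIs in a cell (0, 1, 2 to 4, 5 to 9, or 10 and more), as stacked bars adding to 100 percent for each library. Cells with 0 UMIs made up 36.5% to 63.3% of cells, and cells with 10 or more made up at most 10.6% of cells but up to 58.7% of UMIs.

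By their pattern over the 14 sums of mouse cells (2 lines in 7 libraries), the 5 genes most like Cd74 among 7371 were Vkorc1 (Pearson r = 0.992 on log2(CPM + 1)), Tspan31 (0.990), Erp29 (0.990), Padi4 (0.990) and Mrfap1 (0.989). The points fall into 2 groups by line and share libraries and depth, so a gene far higher in IVA12 in every library scores high by that alone. Within the 7 IVA12 sums, r with Cd74 was 0.990 for Vkorc1, 0.980 for Mrfap1, 0.953 for Padi4, 0.944 for Tspan31 and 0.768 for Erp29. Those 7 sums are among the 14 that chose the genes, so these values are a description and no separate check. HLA-DRA, with 2 UMIs, gave no pattern to compare.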

How the data were processed

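Whole-transcriptome counts of single-cell barcodes in 7 of the 8 labelled libraries were used, as the authors deposited them: UMI counts per gene and barcode, all barcodes kept, neither normalized nor pooled. The authors downsampled the reads to level depth between libraries and counted them with Cell Ranger 3.0.2 against a combined human hg19 and mouse mm10 reference (1.2.0), so a UMI's species is that of the genome its read matched. The first 3′ v2 library was not analysed here. No doublet caller was run, and cells of mixed species were removed by the 80% rule.

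UMIs were summed per library and line (92258 to 80891726 UMIs of the own species per sum; the libraries held 24790710 to 251164949 UMIs over all barcodes) and tested with edgeR 4.0.16 in R 4.3.3: TMM scaling, the filterByExpr filter, the quasi-likelihood test and Benjamini-Hochberg adjustment over all genes of the species, with a threshold of 0.05. Lines were compared with library as a block, because both lines were captured together; kits were compared within a line, and the change of the line difference between kits was an interaction term. The tests across genes were tested on simulated data. Intervals and limits of 3 UMIs cover counting error only, and a fold against a group at 0 uses 3 UMIs over that group. Such a fold takes the higher group at its measured level and leaves out the counting error of that level. Alternatives were DESeq2 1.42.0, its size factors, no filter, other cell filters (2000 UMIs, 10% mitochondrial UMIs, 3 times the median, 95% of 1 species, 3 marker UMIs), each library left out, and each preparation alone. Per-cell shares were also computed after thinning to 1000 UMIs.

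The members and lists were chosen with earlier results of these data known. The text names all 10 members, the genes of the other class II lists that passed the test or that it counts, and the 5 genes of at least 10 CPM most like Cd74. Some listed genes are not reported here. H2-Ea-ps was in the list but not matched in the reference. Replicate numbers follow accession order and pair nothing across kits.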

Additional observations from a re-analysis of the deposited data

Results flagged for a closer look

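Cd74 in EL4 stood apart in 3′ v3 replicate 3, at 3.96 CPM where the nearest of the other 3 libraries of that kit had 1.21 CPM and the lowest 0.728 CPM. It was the 1 value set apart of 103 groups of libraries looked at, and chance alone sets apart about 1 in 20 groups.

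The difference between the mouse lines changed between 3′ v3 and 5′ v1 for 8 of the 31 listed genes tested (25.8%, beside 30.6% of all genes), given as the log2 difference of IVA12 from EL4 in 3′ v3 minus that in 5′ v1, with edgeR's adjusted p. It was 1.48 ± 0.42 for H2-Eb1 (adjusted p = 0.024), 0.78 ± 0.20 for Socs1 (0.0154), 0.66 ± 0.14 for Ifngr2 (0.00657) and 0.62 ± 0.14 for Jak1 (0.00744). It was −0.39 ± 0.11 for Rfxap (0.023), −1.59 ± 0.52 for Ifi30 (0.0424), −2.01 ± 0.62 for Spi1 (0.0341) and −2.70 ± 0.51 for Lgmn (0.00348). Without 5′ v1 replicate 1 the calls of H2-Eb1, Ifi30, Jak1, Rfxap, Socs1 and Spi1 were lost, and without replicate 2 these and that of Ifngr2. Over 16 alternatives Lgmn was called in 16 and Ifi30 in 8. For the human lines, TALL-104 from Jurkat, it was −1.004 ± 0.23 for CTSD (0.032), a call lost in 8 of 16 alternatives (adjusted p from 1.5e-14 to 0.526). In every one of these, kit and preparation cannot be told apart.

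Cells that the rule assigned to no line also held class II UMIs. In 1451 unassigned mouse cells Cd74 was at 51.9 CPM (743 UMIs, 0 to 76.0 CPM over libraries) and H2-Eb1 at 1.05 CPM (15 UMIs, 0 to 2.41 CPM), where 3 UMIs would be 0.210 CPM. In 1074 unassigned human cells HLA-DRB1 was at 2.16 CPM (22 UMIs, 0 to 2.79 CPM), where 3 UMIs would be 0.295 CPM.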

How the results depend on the processing

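Of 1516 values of single genes under an alternative, 1387 kept their direction and their side of the threshold, 94 lost a call, 19 gained one and 16 changed sign. The 16 were small values or fits within one preparation. Between the mouse lines this was Rfxap within 5′ v1 (0.07). Between the human lines they were CREB1 with no filter (−0.018), without 3′ v2 replicate 2 (−0.013; up to 0.21 over the libraries left out) and within 5′ v1 (−0.17), and NFYB (0.77) and RFXANK (0.13) within 5′ v1. Between kits they were Cd74 in EL4 without 3′ v3 replicate 2 (0.014; down to −1.17 over the libraries left out) and with 3′ v3 replicates 1 and 3 (0.40), and H2-Aa in IVA12 with DESeq2 (−0.0054), without 3′ v3 replicate 1 (−0.11) or 3 (−0.36) and without 5′ v1 replicate 1 (−0.23; up to 0.35 over the libraries left out). For the line difference between kits they were Cd74 without 3′ v3 replicate 3 (0.20; down to −0.91) and H2-Aa with cells under 10% mitochondrial UMIs (0.042), without 5′ v1 replicate 2 (0.11; down to −1.26) and with 3′ v3 replicates 1 and 3 (0.067).

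Counts of genes called between the mouse lines (10154, listed 31) stayed within 1.5 times in every alternative. Those between the human lines (8155, listed 18) were 5202 without the library block and 3231 within 5′ v1, where 9 listed genes were called. Leaving out 1 library each, the kit counts ran from 1068 to 4480 in EL4 (4507 with all; listed 1 to 8 against 7), 17 to 1164 in IVA12 (1137; listed 0), 106 to 2473 in Jurkat (2450; listed 0 to 7 against 7) and 9 to 640 in TALL-104 (407; listed 0). The lowest came from leaving out a 5′ v1 library, where the lone 5′ v1 library is assumed to vary like those of the other kit. For the line difference between kits they ran from 1452 to 4332 in the mouse (4036; listed 1 to 9 against 8) and from 2 to 355 in the human (160; listed 0 to 2 against 1). With 3′ v3 replicates 1 and 3 alone the kit counts were 7906 of 11900 genes tested in EL4, 7025 of 11669 in IVA12, 8210 of 13740 in Jurkat and 1303 of 7296 in TALL-104 (listed 19, 18, 22 and 4). With replicates 2 and 4 alone they were 8210 of 11590, 7711 of 11534, 9434 of 12938 and 2247 of 6485 (listed 15, 14, 17 and 8). For the line difference the fit with replicates 2 and 4 gave 6073 of 12872 mouse genes (listed 16). In the human the 2 pairs gave 577 of 12752 and 1214 of 11808 genes (listed 4 and 4). How many listed genes entered each of these fits is not reported here, so the listed counts cannot be read against the share of all genes. TALL-104 had 711 calls with no filter and 218 with over 95% of UMIs from 1 species. The human line difference had 290 with no filter, and its 1 listed gene was not called (0) with 2000 UMIs, under 10% mitochondrial UMIs, cells over 3 times the median left out, or 95% from 1 species. The cause of these shifts was not tested.

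Thinned to 1000 UMIs, the share of IVA12 cells with a Cd74 UMI was 6.95% in 3′ v3 and 12.2% in 5′ v1, that of EL4 cells 0.444% and 0.267% (1.29% in 3′ v3 replicate 3 and 0.338%, 0.0801% and 0.0649% in replicates 1, 2 and 4, so the 3′ v3 mean lies above 5′ v1 through replicate 3), that of EL4 cells with H2-Eb1 0.307% and 0.523%, that of IVA12 cells with H2-Eb1 0.0926% in 3′ v3, and that of Jurkat cells with HLA-DRB1 0.140% in 3′ v3. The 2 lines of a species were blocked by library. Between kits, no pairing was used. No paired analysis was possible because the labels number the libraries of each kit on their own. Members other than Cd74 rest on few UMIs, and TALL-104 on 5883596 in all.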

Other observations

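Within IVA12, genes that went with Cd74 from cell to cell were looked at over 7082 genes, as Pearson's r on values scaled to 10000 UMIs per cell and logged, in each of the 7 libraries. The genes named here were chosen after their values were seen, the cells of a library share its free RNA, and r is given as a description. Highest was Cd52, a small surface glycoprotein of lymphocytes (r 0.389 to 0.503 over libraries), followed by Cyba, a subunit of the phagocyte oxidase (0.272 to 0.398). The MHC class I heavy chain genes H2-K1 and H2-D1 and the class I light chain gene B2m came next, with medians of 0.296, 0.293 and 0.290.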
